A study of Mus musculus with 2 samples.

Results

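The AP-1 genes described here are Fos, Fosb, Fosl1, Fosl2, Jun, Junb, Jund, Atf3, Batf and Maff, 10 of the 49585 gene identifiers in the deposited count table. They were chosen by name, through the Ensembl identifier of each symbol, and all 10 had reads in both libraries. The cells were CD11b+ cells, that is cells carrying the integrin of monocytes, macrophages and granulocytes, pulled with magnetic beads from digested subcutaneous tumours of mouse pancreatic cancer lines. All animals had the genotype NRP2f/fCSF1R-iCRE on a BL6 background: Nrp2 alleles flanked by loxP sites, with inducible Cre driven from the Csf1r promoter, a promoter of the monocyte and macrophage lineage. The control group is not said to have received tamoxifen or vehicle, whereas the test group received tamoxifen by intraperitoneal injection every day to delete Nrp2, so drug and deletion cannot be told apart. Tumours were taken at 15 days, the age of the animals is not stated, and RNA of 3 animals was pooled into 1 library per group.

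AP-1 is a dimer of basic leucine zipper proteins that binds short DNA elements. FOS proteins need a JUN partner, JUN proteins can pair with each other, and ATF3, BATF and the small MAF proteins join the same network, some of them as repressors because they lack an activation domain. Most of these genes are immediate early genes: they are transcribed within minutes of a growth factor, cytokine or stress signal that reaches them through MAP kinases, and their mRNAs are short-lived. In macrophages AP-1 takes part in cytokine, protease and phagocytic gene expression, and the enzymatic digestion of a tissue is itself a known inducer of Fos and Jun.

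Each group is 1 pooled library, so no difference could be checked over replicates and none was given a p-value. The control library held 64153676 reads and the knockout library 68554172. Levels are CPM, reads relative to library size, after scaling with trimmed mean of M-values (TMM) factors. Ratios are knockout over control, and their 95% intervals are exact Clopper-Pearson intervals on reads divided by the reads that 1 captured fragment was worth, 47 in the control and 24 in the knockout library. They cover counting error only and not the spread between animals. The targeted gene, Nrp2, was at 147 CPM in the control and 15.2 CPM in the knockout library, 9.7-fold lower, and the selection antigen Itgam was at 294 and 422 CPM. Genes on the macrophage marker list were read in both libraries and went either way. Among them Lyz2 was at 12920 and 15890 CPM, Csf1r at 2203 and 1844 CPM, and Adgre1 at 710 and 518 CPM.

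The transcripts of the FOS and JUN group were higher in the knockout library for Jun, Fosb, Fos, Jund and Fosl2, level for Junb, and lower for Atf3. Fos and Fosb differed by nearly the same factor, and so did Jun. Of the 10 members 5 had an interval above 1 and 1 below it, against 12.7% and 11% of the 14420 genes with at least 50 reads in the libraries together. Summed over the 10 genes, AP-1 transcripts took 0.837% of all control reads and 1.03% of all knockout reads, which is 8175 and 10571 CPM, a ratio of 1.29 (1.27 to 1.32).

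**Figure D1:**
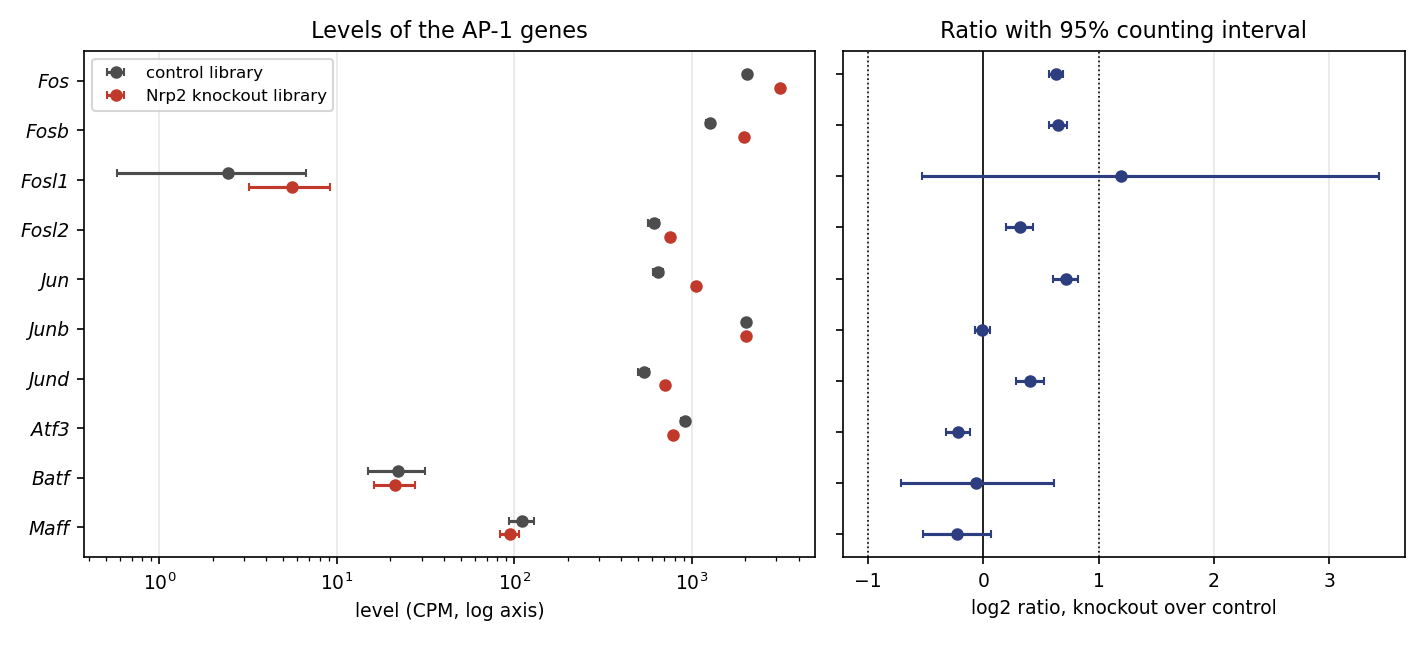
Levels of the 10 AP-1 genes in each library in CPM on a log axis (left) and their log2 ratio, knockout over control (right). Points are single pooled libraries or their ratio, bars are 95% counting intervals, and dotted lines mark 2-fold. Fos, Fosb, Fosl2, Jun and Jund lie to the right of 0, Atf3 lies to the left, and the bars of Fosl1, Junb, Batf and Maff cross 0.

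Fos (ENSMUSG00000021250, GRCm38 chromosome 12, 85473890 to 85477273, plus strand), the inducible partner of JUN proteins, had 134164 reads in the control and 210982 in the knockout. That is 2042 and 3153 CPM, a ratio of 1.54 (1.48 to 1.61). Fos was the 39th most counted gene of the control library and the 24th of the knockout library. Fosb (ENSMUSG00000003545, chromosome 7, 19302696 to 19310051, minus strand), its close paralogue, had 82860 and 131807 reads, or 1261 and 1970 CPM, a ratio of 1.56 (1.48 to 1.65). The knockout library was thus the higher for both. Reads of Fosb per read of Fos, a quotient that no library scaling can move, were 0.618 (0.582 to 0.656) in the control and 0.625 (0.604 to 0.646) in the knockout library.

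Fosl2 (ENSMUSG00000029135, chromosome 5, 32135801 to 32157842, plus strand), which encodes the Fos-related antigen FRA-2, had 40116 and 50781 reads. Its level was 610 CPM in the control and 759 CPM in the knockout library, a ratio of 1.24 (1.15 to 1.35). The difference went the same way as that of Fos but was smaller: reads of Fosl2 per read of Fos were 0.299 (0.277 to 0.323) in the control and 0.241 (0.229 to 0.252) in the knockout library. Fosl1 (ENSMUSG00000024912, chromosome 19, 5447547 to 5455946, plus strand), which encodes FRA-1, was near the lower end of detection at 161 and 376 reads, or 2.45 and 5.62 CPM. Its ratio of 2.29 made it the only member past 2-fold, but the interval of 0.692 to 10.8 includes 1, and with a prior of 1 fragment added to each library its log2 ratio of 1.19 became 0.92, under 2-fold. Epithelial tumour cells and fibroblasts are known sources of Fosl1, and the summed markers of each were lower in the knockout library. The 12 epithelial genes summed to 214 and 143 CPM, with Cldn4 and Cldn7 at 0 in both libraries and Sox9 at 0 in the knockout library, and the 10 fibroblast genes summed to 367 and 210 CPM, none of them at 0. Not every marker was lower. Of the epithelial genes with at least 50 reads 1 of 10 was higher, Krt7, and of the fibroblast genes 3 of 10, Fap, Pdgfra and Dcn. Over all genes 7143 of 14420 were higher. The intervals of these 4 markers include 1. The part of epithelial tumour cells and fibroblasts in the Fosl1 reads was not tested.

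Jun (ENSMUSG00000052684, chromosome 4, 95049034 to 95052222, minus strand), the main transactivating partner of FOS, had 42243 control and 70585 knockout reads. At 643 and 1055 CPM its ratio was 1.64 (1.52 to 1.77), the largest of the 8 members with at least 10000 reads in all. Jund (ENSMUSG00000071076, chromosome 8, 70698949 to 70700616, plus strand), the JUN gene that many resting cells express steadily, had 35328 and 47544 reads, or 538 and 710 CPM, a ratio of 1.32 (1.21 to 1.44). Both were the higher in the knockout library.

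Junb (ENSMUSG00000052837, chromosome 8, 84974484 to 84978718, minus strand), a weaker activator than JUN that can oppose it, stood apart from its paralogues. It had 133473 control and 135000 knockout reads, 2031 and 2017 CPM, a ratio of 0.993 (0.949 to 1.04). The direction of so small a difference depends on the scaling: the log2 ratio ran from -0.08 with total counts, where as with upper-quartile scaling the interval leaves out 1, to 0.00175 both with DESeq2 size factors and in the authors' deposited table. Reads of Jun per read of Junb went from 0.316 (0.293 to 0.341) in the control to 0.523 (0.5 to 0.547) in the knockout library, intervals that do not overlap. Reads of Junb per read of Fos went from 0.995 (0.944 to 1.05) to 0.64 (0.619 to 0.662). The control library thus held about as many Junb as Fos reads, and the knockout library fewer.

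Of the remaining members Atf3 (ENSMUSG00000026628, chromosome 1, 191170296 to 191218039, minus strand), a stress-induced factor that can repress inflammatory genes, had 60190 and 52620 reads. It was at 916 CPM in the control and 786 CPM in the knockout library, 1.16-fold lower (1.09 to 1.25). Reads of Atf3 per read of Fos were 0.449 (0.42 to 0.479) in the control and 0.249 (0.238 to 0.261) in the knockout library. Maff (ENSMUSG00000042622, chromosome 15, 79346621 to 79359076, plus strand), a small MAF protein without an activation domain, had 7261 and 6315 reads, or 110 and 94.4 CPM. It was 1.17-fold lower, with an interval of 0.954 to 1.43 that includes 1 and leaves it out when total counts are used for scaling. Both genes were the lower in the knockout library, and only for Atf3 did the interval leave out 1 under TMM scaling.

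Batf (ENSMUSG00000034266, chromosome 12, 85686669 to 85709087, plus strand), a partner of JUN and IRF proteins in lymphocytes and dendritic cells, had 1458 and 1422 reads, or 22.2 and 21.2 CPM. Its ratio of 0.958 (0.61 to 1.53) has an interval that spans 1. Marker genes of the cells known for Batf were lower in the knockout library beside it. The 18 T cell markers summed to 295 and 174 CPM and 15 of them were at least 2-fold lower, as were 14.7% of all genes. The 12 conventional dendritic cell markers summed to 1042 and 780 CPM, 8 of them at least 2-fold lower (14.7% of all genes) and Xcr1 at 0 in the knockout library. The 10 B and plasma cell markers summed to 210 and 22.6 CPM, 8 of the 9 with at least 50 reads at least 2-fold lower (14.7% of all genes), and Pax5 and Blk at 0 in the knockout library. Their part in the level of Batf was not tested. In pooled RNA, fewer cells of a type and less RNA per cell cannot be told apart.

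Of the 14420 genes 10.9% reached 2-fold in the direction of the knockout library, and of the 10 members 1, Fosl1. In the other direction 14.7% of the genes and 0 members did. Because ratios of shallow genes spread widely, the 8 members with at least 10000 reads are better read against the 2548 genes of that depth, whose log2 ratios had a robust SD of 0.40. Of those genes 13.3% were at least 1.5-fold higher, and of the members 3 of 8 were, namely Jun, Fosb and Fos, while 7.38% of the genes and 0 of the members were 1.5-fold lower. These counts hold under TMM scaling. With total counts or upper-quartile scaling Fos and Fosb fell just under 1.5-fold, and Jun stayed above it. The ratio of Jun lay above that of 91.2% of the 2548 genes, those of Fosb and Fos above 88.9% and 88.4%. Jund lay above 79.2%, Fosl2 above 73.6%, Junb above 44.9%, Atf3 above 24.6% and Maff above 23.7%. Jun, Fosb and Fos thus lay toward the upper end of the well-read genes, and the others nearer the middle. An interval above 1 was found for 5 of these 8 members against 31.3% of the genes, and an interval below 1 for 1 of 8 against 24.2%. Of the 9 members with at least 1000 reads 5 were higher at all, against 53.5% of the 9054 genes of that depth. In the authors' deposited table the 10 log2 fold changes ran from -0.22 for Maff to 1.21 for Fosl1, each with an adjusted p-value of 0.9999.

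**Figure D2:**
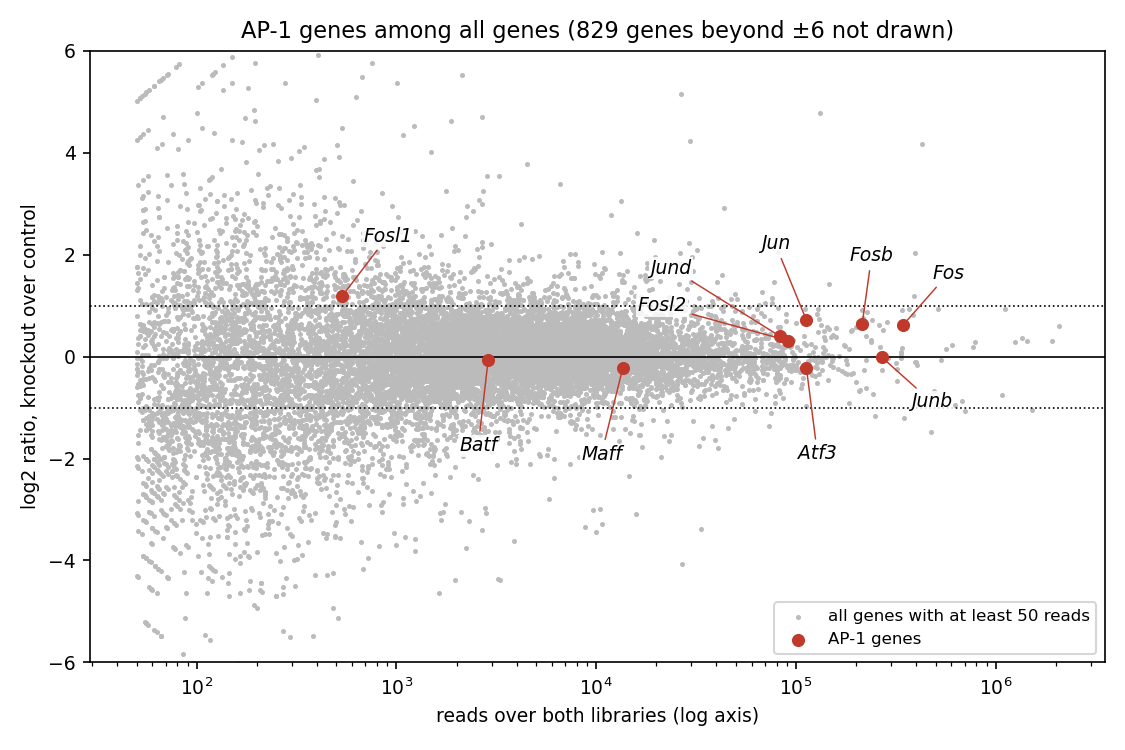
Log2 ratio, knockout over control, against reads summed over both libraries (log axis) for the genes with at least 50 reads (grey) and the 10 AP-1 genes (red); dotted lines mark 2-fold, and 829 genes beyond 6 on the log2 scale are not drawn. The grey cloud narrows as reads increase, Fosl1 lies where it is wide, and Jun, Fosb and Fos lie toward the upper edge of its narrow right-hand part.

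Levels of different genes were compared per kilobase of annotated exon. In the control library Junb (883 CPM per kb) and Fos (868) led with overlapping intervals, followed by Atf3 (425), Jund (322), Fosb (202) and Jun (202), the last pair again with overlapping intervals. In the knockout library Fos (1340) stood above Junb (877), followed by Jund (426), Atf3 (365), Jun (331) and Fosb (315), the last pair overlapping. Fosl2, Maff, Batf and Fosl1 came after these in both libraries, from 63.1 down to 1.21 CPM per kb in the control and from 78.4 down to 2.76 in the knockout library. Other neighbours in these orders did not overlap in their counting intervals. With the length of the longest coding transcript Fosb moved up, from the fifth place to the fourth in the control and from the sixth to the third in the knockout library, with Jund, Atf3 or Jun each a place lower there.

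On this per-length scale the 4 FOS genes made up 37.5% of the summed AP-1 level in the control and 45.9% in the knockout library. The 3 JUN genes made up 46.5% and 43.1%, and Atf3, Batf and Maff together 16.0% and 11%. The share of Fos itself was 28.7% and 35.4%, and that of Junb 29.2% and 23.2%. The larger share of FOS in the knockout library thus came with smaller shares of Junb, whose level hardly differed, and of Atf3, whose level was lower.

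**Figure D3:**
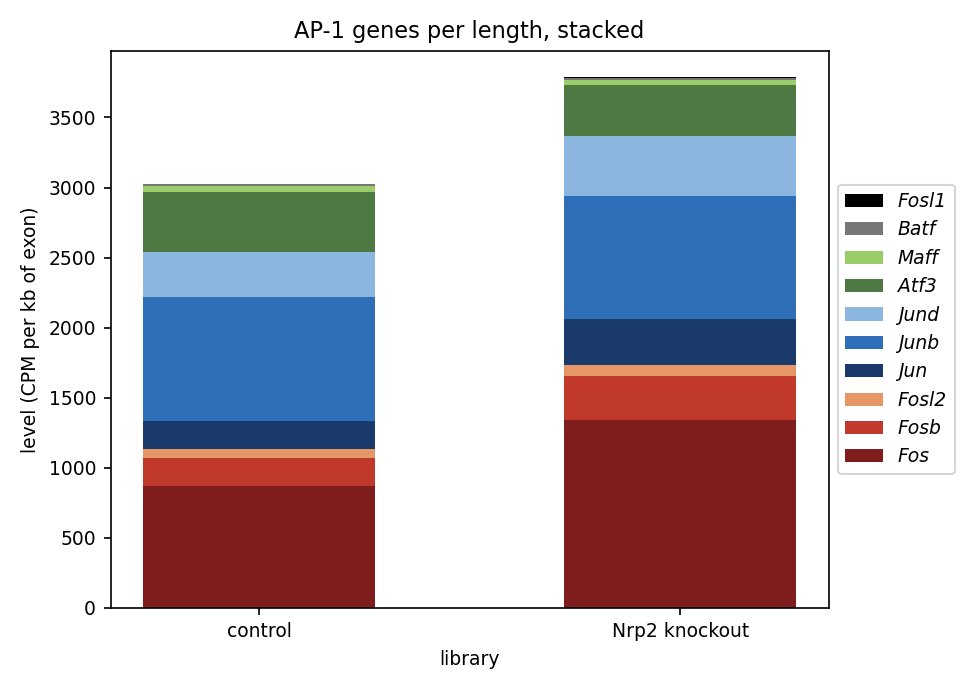
Levels of the 10 AP-1 genes in CPM per kilobase of exon, stacked for each library (1 pooled library per bar, no error bars). The Fos segment is taller in the knockout bar (1340 against 868), while the Junb segments are of nearly the same height (877 and 883).

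Several members share their locus with a gene on the opposite strand, and no source used here says if reads were counted by strand. Junos, antisense to Jun, had 450 and 846 reads, 1.07% and 1.2% of the reads of Jun. Prdx2, a peroxiredoxin gene whose annotation overlaps Junb, had 11307 and 8461 reads, 8.47% and 6.27% of the reads of Junb. Gm11175 had 273 and 382 reads beside Jund, and Ccdc85b 697 and 447 beside Fosl1, more than Fosl1 itself in both libraries. No gene other than these and Gm24748, listed at 0 within Atf3, overlapped a member in the annotation.

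The promoters of Fos, Fosb and Jun, which were higher together, are shown with those of Junb and Atf3, which were not, because cAMP and stress signals reach these genes through short elements near the start. RefSeq windows (GRCm38.p6) were at hand for 9 of the 10 members, 3 of them for Maff. Each line gives the 250 bases before the start annotated in RefSeq, 5′ to 3′ on the strand of the gene. Capitals mark TGACG on either strand, the core of the cAMP response element that CREB, ATF and some JUN dimers bind, and in Fos also the TATAAA box; in Jun they mark TGACATCA, a match to TGACNTCA.
Fos (chr12:85473640-85473889, plus strand): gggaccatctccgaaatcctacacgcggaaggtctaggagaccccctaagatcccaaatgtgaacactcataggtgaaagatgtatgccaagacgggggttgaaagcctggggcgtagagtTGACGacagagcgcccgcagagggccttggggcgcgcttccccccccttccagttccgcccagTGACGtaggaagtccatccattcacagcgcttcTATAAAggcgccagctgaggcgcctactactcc
Fosb (chr7:19310046-19310295, minus strand): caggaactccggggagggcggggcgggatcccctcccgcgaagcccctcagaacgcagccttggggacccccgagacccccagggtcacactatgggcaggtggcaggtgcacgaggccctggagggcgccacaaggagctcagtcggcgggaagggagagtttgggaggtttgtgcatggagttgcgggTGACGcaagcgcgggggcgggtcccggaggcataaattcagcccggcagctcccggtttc
Jun (chr4:95052223-95052472, minus strand): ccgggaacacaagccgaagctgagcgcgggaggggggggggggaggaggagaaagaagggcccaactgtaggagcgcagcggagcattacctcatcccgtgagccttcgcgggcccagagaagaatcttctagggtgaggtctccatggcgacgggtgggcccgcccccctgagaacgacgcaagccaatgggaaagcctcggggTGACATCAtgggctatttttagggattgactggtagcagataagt
Junb (chr8:84978749-84978998, minus strand): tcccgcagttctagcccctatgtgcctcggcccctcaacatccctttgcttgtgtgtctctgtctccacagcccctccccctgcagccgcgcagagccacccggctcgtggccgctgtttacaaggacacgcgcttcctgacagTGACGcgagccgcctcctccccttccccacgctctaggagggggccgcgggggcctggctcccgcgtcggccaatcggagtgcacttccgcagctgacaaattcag
Atf3 (chr1:191183334-191183583, minus strand): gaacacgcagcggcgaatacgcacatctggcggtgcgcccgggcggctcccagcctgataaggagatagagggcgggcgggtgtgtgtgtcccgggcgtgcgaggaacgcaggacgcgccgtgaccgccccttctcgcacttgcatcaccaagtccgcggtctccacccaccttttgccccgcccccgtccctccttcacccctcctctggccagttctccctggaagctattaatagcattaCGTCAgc
Searched in these 250 bases, TGACG was found in 6 members, Fos, Fosb, Junb, Atf3, Batf and Maff, and in 17.8% of the 32851 windows of all genes. In Fos it lies 66 to 62 and 129 to 125 bases before the start, in Fosb 60 to 56, in Junb 106 to 102, and in Atf3 on the opposite strand 7 to 3 bases before it. TGACG was thus present both in members that were higher and in members that were not, and it was absent from Jun, Jund and Fosl2, which were higher. Members are counted once each, Maff with 3 windows, whereas the share over all genes counts windows. The match in Jun lies 45 to 38 bases before the start, and TGACNTCA, which includes the full element TGACGTCA, was found in 7.49% of all windows. Maff, which was not higher, has the same TGACATCA 45 to 38 bases before the start in 1 of its windows. The full TGACGTCA, searched on both strands, was found in 1 other window of Maff and in 1.55% of all windows. TGANTCA, with any base at N, is a pattern wider than the classical AP-1 site, which it includes. It was in no window of the 9 members (6.75% of all windows, a share of the wider pattern). Nor was the CArG box bound by serum response factor (1.47% of all windows), which says only that these letters are not in these windows.

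Other immediate early genes were higher in the knockout library for a part of the list. Of 30 genes, all with at least 50 reads, 1 reached 2-fold upward, Klf2, and 0 downward, against 10.9% and 14.7% of all genes, and 13 had an interval above 1 and 3 below it, against 12.7% and 11%. Intervals narrow with depth: among genes with at least 10000 reads, as most of this list had, these shares were 31.3% and 24.2%. The count of 0 past 2-fold downward became 1, Arc, with total counts or upper-quartile scaling. The median log2 ratio of the list was 0.13, beside -0.01 over all genes. Klf2, a Krüppel-like factor of quiescent leukocytes and endothelium, was at 162 and 445 CPM, a ratio of 2.75 (2.39 to 3.19). Klf6, a factor of the same family, was at 664 and 1269 CPM (1.91, 1.78 to 2.06), and Klf4 at 484 and 863 CPM (1.78, 1.64 to 1.94). Zfp36, which encodes the mRNA decay factor tristetraprolin and was among the most read of the list, was at 2558 and 2498 CPM, a ratio of 0.976 (0.938 to 1.02). Mcl1, a BCL2 family survival gene, was at 1585 and 1978 CPM, a ratio of 1.25 (1.19 to 1.31). Egr1, named after its value was seen because it is induced along with Fos, was at 414 and 519 CPM (1.25, 1.14 to 1.38). Nr4a1, an orphan nuclear receptor gene, was at 571 and 590 CPM (1.03, 0.95 to 1.13). The list was therefore uneven, as the AP-1 members were.

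Heat shock genes that digestion is known to induce along with Fos and Jun were level or slightly lower. Of 11 genes 1 was past 2-fold, downward, against 14.7% of all genes and 362 of the 9054 genes with at least 1000 reads. An interval above 1 was found for 0 and below 1 for 3, against 12.7% and 11% of all genes, and the median log2 ratio was -0.14. Hspa1b, an inducible HSP70 gene with a near-identical neighbour Hspa1a among which reads could be split, was at 62.0 and 29.6 CPM, 2.09-fold lower (1.53 to 2.86). Hspa1a was at 95.1 and 79.8 CPM, 1.19-fold lower with an interval of 0.953 to 1.48 that includes 1. The 2-fold call of Hspa1b may thus depend on how reads were assigned. Hsp90ab1, the constitutive HSP90 gene, was at 1142 and 793 CPM, 1.44-fold lower (1.35 to 1.54). Hspa8, the constitutive HSP70 gene, was at 1744 and 1657 CPM. The 11 genes summed to 3661 CPM in the control and 3149 CPM in the knockout library. Most of either sum came from the constitutive genes Hspa8 and Hsp90ab1. Whether digestion differed between the libraries is not stated, and digestion and group cannot be told apart.

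MAP kinases carry the signals that activate AP-1, and DUSP phosphatases switch them off. Of the 23 genes for MAP kinases, their upstream kinases and the serum response factors, 22 had at least 50 reads. Among these 0 were past 2-fold upward and 1 downward, against 10.9% and 14.7% of all genes, 6 had an interval above 1 and 1 below it, against 12.7% and 11%, and the median log2 ratio was 0.19. Map3k7, which encodes the kinase TAK1, was at 42.4 and 73.3 CPM, a ratio of 1.73 (1.29 to 2.35). Map3k8 and Map3k5, upstream kinases known as TPL2 and ASK1, had ratios of 1.59 (1.22 to 2.11) and 1.57 (1.13 to 2.23). Mapk14, the p38 alpha gene, was at 169 and 131 CPM, 1.29-fold lower (1.09 to 1.52). Of the 10 DUSP genes none was past 2-fold, against 10.9% of all genes upward and 14.7% downward, and 2 had an interval above 1 and 3 below it, against 12.7% and 11%. Dusp1, a phosphatase gene induced together with Fos and also on the immediate early list, was at 1206 and 2211 CPM, a ratio of 1.83 (1.74 to 1.94). Dusp3 was at 107 and 184 CPM (1.72, 1.43 to 2.08), whereas Dusp7 at 22.4 and 12.6 CPM was 1.78-fold lower (1.07 to 2.97), Dusp2 at 46.1 and 26.5 CPM 1.74-fold lower (1.23 to 2.46), and Dusp5 at 242 and 176 CPM 1.37-fold lower (1.19 to 1.58).

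Among 33 other basic leucine zipper genes with at least 50 reads, 2 were past 2-fold upward and 2 downward, against 10.9% and 14.7% of all genes, with a median log2 ratio of 0.06. Of the 29 with at least 1000 reads, 2 were past 2-fold upward and 0 downward, against 410 and 362 of the 9054 genes of that depth. Jdp2, which encodes a repressor that pairs with JUN, was at 37.8 and 126 CPM, a ratio of 3.34 (2.5 to 4.55). Ddit3, the CHOP gene of the stress response, was at 14.9 and 56.5 CPM, a ratio of 3.79 (2.39 to 6.31). Cebpa, a myeloid lineage factor, was at 218 and 436 CPM, a ratio of 2.0 (1.76 to 2.27). Batf3, the relative of Batf that dendritic cells need, was at 15.4 and 8.79 CPM, 1.75-fold lower with an interval of 0.932 to 3.25 that includes 1. Atf4, the stress factor that induces Atf3, was at 274 and 356 CPM, a ratio of 1.3 (1.15 to 1.47), so Atf4 and Ddit3 were higher in the library where Atf3 was lower. Of the 11 ATF4 stress genes with at least 50 reads 2 were past 2-fold upward and 1 downward, against 10.9% and 14.7% of all genes (median log2 ratio 0.32), and Ddit4, an inhibitor of mTORC1 signalling, was at 106 and 190 CPM.

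Genes that textbooks list as AP-1 targets were mostly lower in the knockout library, the opposite of Fos and Jun. Of 25 with at least 50 reads, 8 were past 2-fold downward and 1 upward, against 14.7% and 10.9% of all genes, 13 had an interval below 1 and 5 above it, against 11% and 12.7%, and the median log2 ratio was -0.49. Most of the 25 had at least 10000 reads, and of all genes of that depth 24.2% had an interval below 1 and 31.3% above it. The list median depends on depth. It was -0.13 for the targets with at least 10000 reads and -0.67 for those with at least 1000 reads, beside 0.04 over all genes at either depth. The collagenase gene Mmp13 was at 383 and 114 CPM, 3.36-fold lower (2.92 to 3.87), and the gelatinase gene Mmp9 at 389 and 128 CPM, 3.04-fold lower (2.66 to 3.49). Il1b, the interleukin 1 beta gene and the most read of the list, was at 3671 and 1591 CPM, 2.31-fold lower (2.22 to 2.4). Spp1, the osteopontin gene, was at 2298 and 1377 CPM, 1.67-fold lower (1.59 to 1.75). Il10 and Timp1, for an anti-inflammatory cytokine and a metalloproteinase inhibitor, were 3.88-fold (2.68 to 5.69) and 2.79-fold (1.77 to 4.44) lower. The gene past 2-fold in the other direction was Plaur, the urokinase receptor gene, named after its value was seen, at 370 and 766 CPM, a ratio of 2.07 (1.88 to 2.28). This call does not hold with total counts or upper-quartile scaling. Most of these genes also answer to factors other than AP-1.

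**Figure D4:**
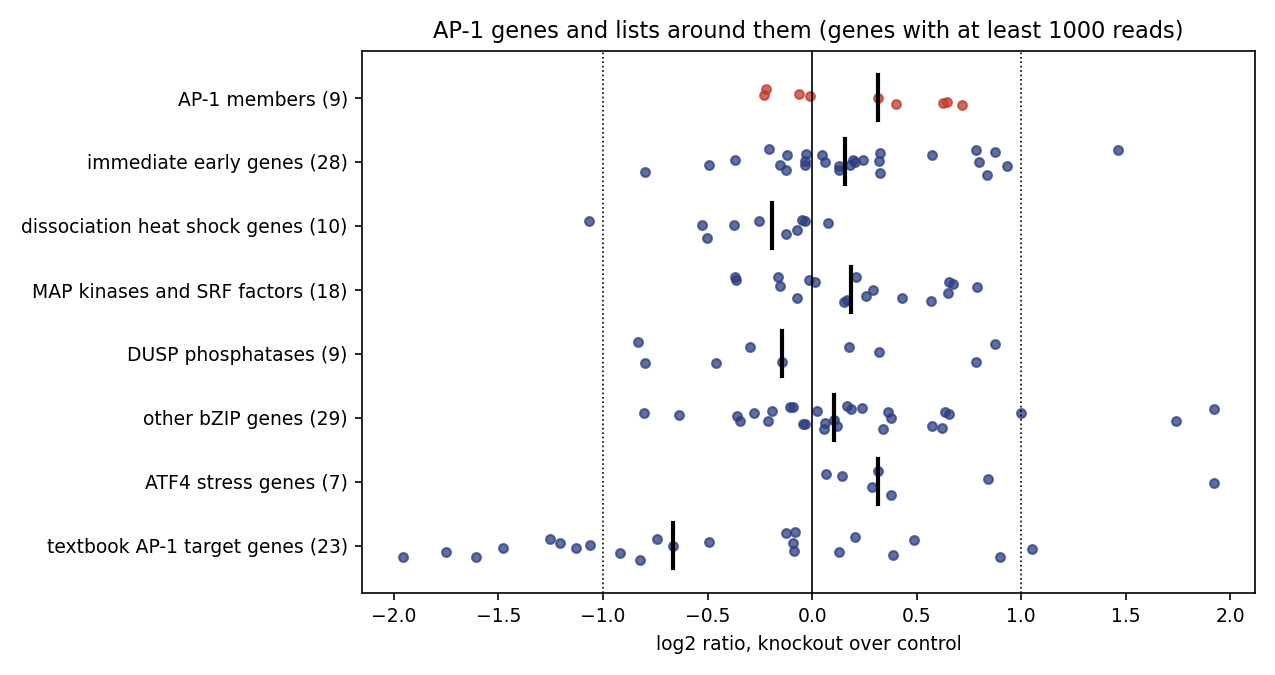
Log2 ratio, knockout over control, of each gene with at least 1000 reads in the AP-1 genes (red) and the lists around them (blue); points are genes, black bars are list medians, numbers in brackets count the genes, and dotted lines mark 2-fold. The AP-1 genes spread from -0.23 to 0.71, 9 of 10 heat shock genes lie below 0, and 17 of 23 textbook AP-1 targets lie below 0.

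Macrophage markers were mixed. Of the 13, none of them at 0, 8 had an interval above 1 and 5 below it, against 12.7% and 11% of all genes. All 13 had at least 10000 reads, and of all genes of that depth 31.3% had an interval above 1 and 24.2% below it. They summed to 41434 and 52276 CPM, a ratio of 1.26 beside 1.29 for the summed AP-1 genes, but most of that difference came from the very abundant Apoe (12388 and 18703 CPM) and Lyz2. Past 2-fold were 1 marker upward and 0 downward, against 10.9% and 14.7% of all genes. The 1 was Mertk, at 86.7 and 310 CPM, a ratio of 3.58 (2.96 to 4.37). Cd68, a lysosomal glycoprotein gene, was at 656 and 1102 CPM (1.68, 1.56 to 1.81), and Mrc1, the mannose receptor gene, at 1366 and 2238 CPM (1.64, 1.56 to 1.72). The 5 lower ones, named here after their values were seen, include lineage-defining genes: Adgre1, which encodes F4/80, was 1.37-fold lower (1.26 to 1.49), Fcgr1 1.32-fold, Csf1r 1.19-fold, C1qb 1.12-fold and C1qa 1.08-fold. Monocyte markers were mostly lower: of 10, none at 0, 5 were past 2-fold downward and 2 upward, against 14.7% and 10.9% of all genes, with a median log2 ratio of -1.15. Cx3cr1, the fractalkine receptor gene, was at 215 and 25.2 CPM, 8.56-fold lower (6.58 to 11.3), and Ccr2, the chemokine receptor gene of inflammatory monocytes, at 502 and 189 CPM, 2.66-fold lower (2.37 to 2.98). Ly6c2, also a marker of inflammatory monocytes, went the other way, at 53.6 and 147 CPM, a ratio of 2.75 (2.15 to 3.57). The sum of the 10 monocyte markers was nonetheless 3489 and 5167 CPM, because Fn1, the fibronectin gene, was at 1786 and 4066 CPM. The 12 neutrophil markers summed to 1357 and 1619 CPM with Camp and Ly6g at 0 in the control library. Of the 11 with at least 50 reads 4 were past 2-fold upward and 0 downward, against 10.9% and 14.7% of all genes. The 4 were Ngp, Lcn2, Ltf and Ly6g, the last with only 96 knockout reads. An interval above 1 was found for 5 of the 11 and below 1 for 2, against 12.7% and 11% of all genes. Adipocyte genes were higher in the knockout library: 7 of the 8 with at least 50 reads were past 2-fold upward, against 10.9% of all genes. Cfd, the adipsin gene, was at 3.85 and 45.2 CPM, a ratio of 11.7 (5.04 to 35), and Adipoq, Plin1 and Retn were at 0 in the control library and at 6.78, 2.54 and 2.87 CPM in the knockout library, while Lep was at 0 in both. The 10 NK cell markers summed to 147 and 51.1 CPM and the 10 endothelial markers to 99.5 and 36.8 CPM, none at 0. The part of these cell types in the levels of the AP-1 genes was not tested.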

How the data were processed

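The members, gene lists and tests were chosen with earlier results of these data known. Groups follow the sample titles, with 1 pooled library each. Per the labels' protocols, the TruSeq kit used keeps strand. cutadapt, HISAT2, featureCounts and GRCm38 are named in the submitters' processing notes, with no versions. The authors deposited raw counts of reads per Ensembl gene. They also deposited a comparison table with normalised counts (a signal), log2 fold changes, a score that divides each by its standard error, and p-values; no source used here names its tool. Only its log2 fold changes and adjusted p-values are quoted.

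Symbols, coordinates and exon lengths came from GENCODE M21 (GRCm38), which named 49326 of 49585 identifiers. TMM factors (edgeR 4.0.16, R 4.3.3) were 1.02 (control) and 0.976 (knockout). Log2 ratios carry a prior of 0.5 counts, while folds and intervals do not. Only genes with 50 reads or more in all were described. A fragment was taken as worth the median reads of genes with more than 4 reads in 1 library and 0 in the other, 867 genes for the control and 2114 for the knockout. The limit that a count of 0 allows was set at 3 fragments, 141 and 72 reads. PCR duplicates are counted, so intervals cover counting error only. The ratio and its interval were tested on simulated data that gave every fragment the same fixed number of reads that the interval assumes. That test checks the calculation and cannot show how well the intervals cover real counts. Named were all members, and of each list up to 4 genes with the largest ratio and the 2 most read among those with at least 1000 reads, not all of which are printed. Of the marker lists for other cell types only those beside a result are given, and the mast cell and keratinocyte markers summed in control and knockout to 15.5 and 23.4 CPM and to 25.3 and 4.62 CPM. Alternatives were other scalings (DESeq2 1.42.0 size factors among them), read minimums, priors, thresholds and lengths.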

Additional observations from a re-analysis of the deposited data

How the results depend on the processing

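No paired analysis was possible because each group is 1 pooled library, and for the same reason no replicate could be left out. Over the scalings, priors and read minimums tried, and in the authors' deposited table, each AP-1 gene except Junb kept the direction of its log2 ratio: Fos lay between 0.56 and 0.64, Fosb between 0.57 and 0.66, Jun between 0.64 and 0.73, Jund between 0.33 and 0.41, Fosl2 between 0.24 and 0.33, Fosl1 between 0.92 and 1.21, Atf3 between -0.29 and -0.21, Maff between -0.30 and -0.22 and Batf between -0.13 and -0.05. Intervals left out 1 for 6 AP-1 genes, for 7 with upper-quartile scaling and for 8 with undivided reads or total counts. The minimum of 10000 reads, the scaling to the median of genes with that depth and the length of the longest coding transcript were added after seeing the data. Counts past 2-fold changed as follows, where fewer genes tested or a lower threshold is part of the alternative itself. With a minimum of 1000 reads 0 AP-1 genes were higher, 410 of all genes were higher and 362 lower, 1 ATF4 stress gene was higher and 0 lower, and 0 MAP kinase and 0 other leucine zipper genes were lower. With a minimum of 10000 reads 0 AP-1 genes were higher, 94 of all genes were higher and 51 lower, 0 ATF4 stress genes were higher and 0 lower, 1 other leucine zipper gene was higher and 0 lower, 0 MAP kinase and 0 heat shock genes were lower, and 5 AP-1 targets were lower. With no minimum 4140 of all genes were higher and 3266 lower. With a prior of 1 fragment 0 AP-1 genes and 912 of all genes were higher. At 1.5-fold 4 AP-1 genes (Fos, Fosb, Jun and Fosl1) were higher, 2873 of all genes were higher and 3273 lower, 4 ATF4 stress genes, 4 MAP kinase genes and 2 AP-1 targets were higher, 2 DUSP genes were higher and 2 lower, 6 immediate early genes were higher and 2 lower, and 6 other leucine zipper genes were higher and 4 lower. With total counts or upper-quartile scaling 0 AP-1 targets were higher, and with these or the median scaling 1 immediate early gene was lower. Fos and Fosb were under 1.5-fold with total counts or upper-quartile scaling. The depth of 24 to 47 reads per fragment limits Fosl1 most.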
